A study of Colocasia esculenta with 4 samples.

Results

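Single-exon genes of taro, Colocasia esculenta, an aroid grown for its corms, were described in the shoot apex by their length, their place along the linkage groups and their spread between replicate libraries. After overlapping exons of a gene were merged, 2141 of the 10950 genes (19.6%) on the stretches considered had exactly 1 exon. The annotation holds 28695 genes in all, of which 5733 have 1 exon. The stretches were LG03 up to 186898486, LG05 from 8000001, LG07 up to 112416047, and all of LG09, LG11 and LG12 (chromosome-scale sequences of the assembly). These stretches had been selected on the read counts of their genes, most of which received reads. The overall share of genes with reads there is therefore a description and carries no test. The 8809 multi-exon genes of the same stretches were the comparison throughout. The exon number comes from the annotation alone.

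Genes without introns are found in all plant genomes. They include large families such as the small auxin up RNA genes, many F-box and pentatricopeptide repeat genes and many AP2/ERF transcription factor genes. A gene can lose its introns when a spliced transcript is copied back into the genome, and a gene without introns can multiply by tandem duplication. The gene identifiers come without names or products, so none of these families could be assigned, no sequence is shown, and the labelled tissue was not checked against marker genes.

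The 4 libraries form a single group. Each is polyadenylated RNA from apical meristem with leaf primordia and very young leaves of the cultivar Bing Liang (spelled Bin Liang in the growth protocol), with no treatment or other genotype named. Whether the replicates are separate plants is not stated, and the spread between them may be technical. The libraries held between 22252534 and 25434148 counts, and a count of 0 allows up to 3 counts, or 0.118 to 0.135 CPM (counts scaled to a library of 1000000), for counting error only.

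The single-exon genes were short. Their exon length had a median of 780 bp, with a range of 153 to 4707 bp, against a median of 1365 bp for multi-exon genes. By length class, 517 were under 500 bp, 830 were 500 to 1000 bp, 584 were over 1000 and up to 2000 bp, and 210 were over 2000 bp. The plus strand carried 1097 of the 2141. The length was a multiple of 3, as a coding sequence without untranslated regions would be, in 97.9% of the single-exon genes under 500 bp. That share was 76.0% at 500 to 1000 bp, 46.1% over 1000 to 2000 bp and 37.6% over 2000 bp. Among multi-exon genes the shares were 97.3%, 77.6%, 54.1% and 45.4% in the same order. No annotation of coding and untranslated parts was used here.

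Single-exon genes were detected less often than multi-exon genes. At 1 CPM or more stood 951, 944, 970 and 910 single-exon genes in replicates 1 to 4, or 44.1% ± 1.17 (SD, n = 4 libraries), against 6669, 6646, 6675 and 6571 multi-exon genes, or 75.4% ± 0.543. The difference was −31.3 ± 0.663 percentage points and had the same sign in 4 of 4 libraries. An exact two-sided sign-flip permutation test over the libraries gave p = 0.13, the smallest it can give with 4 libraries, so no comparison of this kind could pass 0.05. In every library at once, 877 single-exon genes (41.0%) reached 1 CPM, against 6445 multi-exon genes. The background was 66.9% for all genes of the same stretches and 34.2% for the whole annotation. No count in any library was found for 551 of the 2141.

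Detection climbed steeply with length. The share of single-exon genes at 1 CPM was 16.8% ± 0.724 under 500 bp, 30.8% ± 0.801 at 500 to 1000 bp, 71.6% ± 2.68 over 1000 to 2000 bp and 87.0% ± 0.456 over 2000 bp (SD, n = 4). The corresponding multi-exon shares were 38.7% ± 0.508, 57.6% ± 0.485, 83.9% ± 0.779 and 93.7% ± 0.439. Single-exon genes were thus lower in each class and in each library. The gap was widest at 500 to 1000 bp, at −26.8 ± 0.479 points, and narrowest over 2000 bp, at −6.66 ± 0.542 points. Averaged over the classes, the difference at matched length was −19.7 ± 0.759 points (exact sign-flip permutation test, p = 0.13). With a floor of 1 count in place of 1 CPM the differences were −20.0 points, and −11.8 points at matched length. A floor in CPM is not scaled for length, so a longer gene reaches it at a lower level per kilobase. How much of the climb comes from this was not tested. With a floor of 0.5 RPKM (CPM per kilobase of exon) the differences were −28.4 points, and −18.6 points at matched length.

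**Figure D1:**
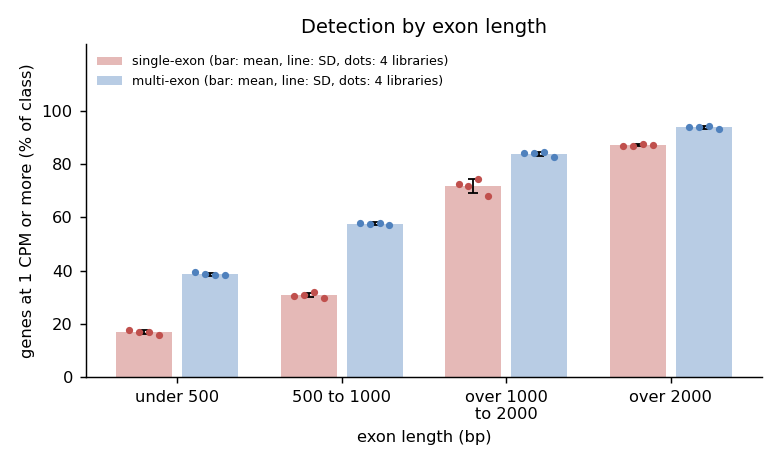
Percentage of genes with at least 1 CPM, by exon length class in bp, for single-exon (left) and multi-exon (right) genes of the same linkage-group stretches. Bars are means, lines SD and dots the 4 libraries. Single-exon genes lay at 16.8% to 87.0% from the shortest to the longest class, below multi-exon genes (38.7% to 93.7%) in each.

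In detected share, genes with exactly 2 exons lay closer to the single-exon genes than genes with more exons did, except over 2000 bp. There the shares at 1 CPM were 87.0% ± 0.456 for 1 exon, 92.1% ± 0.459 for 2 exons and 90.1% ± 1.58 for 3. Over 1000 to 2000 bp, the shares at 1 CPM were 71.6% ± 2.68 for 1 exon, 75.3% ± 2.13 for 2 exons, 76.8% ± 1.18 for 3 and 87.8% ± 0.372 for 4 or more. The SDs of the first 2 values overlap, although 1-exon genes were lower in each library. Against genes of 2 exons only, a comparison chosen after the data were seen, the difference was −8.79 ± 0.279 points, and −7.06 ± 0.273 points at matched length (exact sign-flip permutation test, p = 0.13 for both).

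Detection also differed with divisibility of the length by 3, though not in every class. At 500 to 1000 bp, 100 of 199 single-exon genes (50.3%) with a length not divisible by 3 reached 1 CPM in every library. With a length divisible by 3, 134 of 631 (21.2%) did. The shares below are given in this order, not divisible first. Multi-exon genes of this class showed the same order, with 77.6% against 48.2%. For single-exon genes over 1000 to 2000 bp the shares were 73.7% of 315 against 56.5% of 269, and over 2000 bp 87.0% of 131 against 86.1% of 79. Under 500 bp the shares were 1 of 11 (9.09%) against 76 of 506 (15.0%), with too few genes in the first set to give an order. Multi-exon genes under 500 bp stood at 57.1% of 28 against 35.9% of 1008. How the untranslated regions were annotated is not stated in the labels or file headers. Within length class and divisibility together, the single-exon shortfall was −20.1 ± 0.747 points, close to the value at matched length alone.

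Detected single-exon genes also stood at lower levels. Levels per length are given in RPKM, CPM divided by the exon length in kilobases. The median over the 877 detected genes was 14.0, 13.9, 16.2 and 11.9 RPKM in replicates 1 to 4, against 32.3, 31.2, 31.4 and 32.0 RPKM over the 6445 detected multi-exon genes. The medians did not overlap between the classes, and the single-exon value was highest in replicate 3 and lowest in replicate 4. On the log2 scale the difference was −1.19 ± 0.19, and −1.24 ± 0.16 at matched length (SD, n = 4; exact sign-flip permutation test, p = 0.13 for both). It depends on the floor: with at least 10 CPM in every library it was −0.41, and with at least 1 count −2.06. Against genes of 2 exons only, chosen after the data were seen, it was −0.59 ± 0.12, and −0.65 ± 0.09 at matched length. Over all lengths, the median of detected genes rose with exon number. It was 14.0 RPKM for 1 exon, 21.0 for 2, 26.3 for 3 and 35.2 for 4 or more (means over libraries).

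In the shortest class the levels lay close together. Under 500 bp, the 77 detected single-exon genes had a median of 26.5 ± 1.01 RPKM, against 28.2 ± 0.767 RPKM for 378 multi-exon genes, a log2 difference of −0.09 ± 0.07, with the single-exon median lower in 4 of 4 libraries. In the longer classes the single-exon medians were 10.8 ± 1.18, 14.8 ± 2.07 and 10.8 ± 0.754 RPKM, against 29.7 ± 0.613, 33.5 ± 0.371 and 31.1 ± 0.561 RPKM. The log2 differences there were −1.46 ± 0.19, −1.19 ± 0.21 and −1.53 ± 0.09. A floor in CPM is a higher floor in RPKM for short genes.

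**Figure D2:**
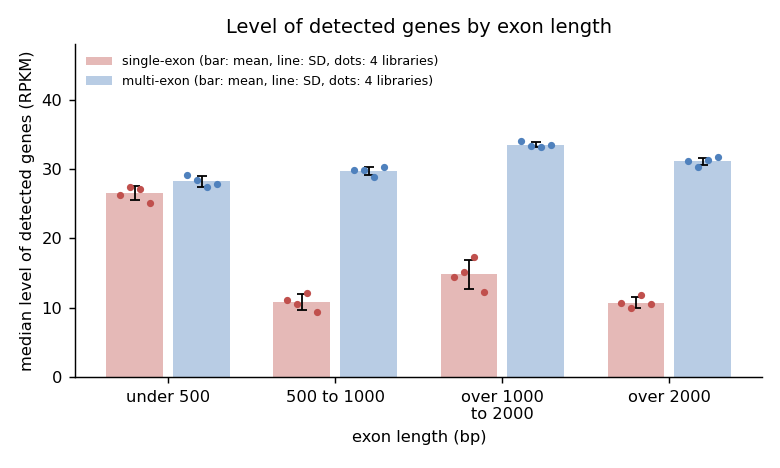
Median level in RPKM of genes with at least 1 CPM in every library, by exon length class in bp, for single-exon (left) and multi-exon (right) genes. Bars are means, lines SD and dots the 4 libraries. Single-exon medians lay between 10.8 and 14.8 RPKM in the 3 longer classes, against 29.7 to 33.5 RPKM for multi-exon genes, and near them only under 500 bp.

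A few single-exon genes were very abundant all the same. They took 6.25% ± 0.580 of the counts of these stretches, with 19.6% of the genes, and 15 of the 100 genes of highest mean RPKM there were single-exon. The 10 most counted held 20.4% ± 1.62 of all single-exon counts, against 6.52% ± 0.255 for the 10 most counted multi-exon genes (SD, n = 4). These shares are not directly comparable, as 10 genes are a larger part of the smaller class. At a mean of 100 RPKM or more stood 80 of 877 detected single-exon genes (9.12%), against 1092 of 6445 detected multi-exon genes (16.9%).

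The highest level of a single-exon gene belonged to EVM0001625, of 794 bp on the minus strand of LG07 (91193670 to 91194463). It reached 2850, 2674, 2338 and 2479 RPKM in replicates 1 to 4. The next in its length class, EVM0009033 (801 bp, LG03, 3207391 to 3208191, minus strand), had 1436, 1485, 1626 and 1083 RPKM. The libraries of these genes do not overlap, so their order held in each replicate. EVM0009033 is one of 5 consecutive single-exon genes between 3113853 and 3210638.

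Over 1000 to 2000 bp, EVM0021963 (1001 bp, LG12, 82215356 to 82216356, minus strand) led with 1068, 1096, 868 and 816 RPKM. EVM0020269 (1123 bp, LG07, 83148788 to 83149910, plus strand) followed with 345, 844, 742 and 1261 RPKM. The values of this pair overlap, and EVM0020269 varied more, with a coefficient of variation of 47.1% against 14.6%. Over 2000 bp, EVM0014933 (2184 bp, LG03, 176895078 to 176897261, minus strand) had 406, 367, 374 and 349 RPKM. EVM0004071 (2844 bp, LG07, 98677155 to 98679998, minus strand) had 209, 120, 171 and 124 RPKM and lay below it in each library.

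Under 500 bp, EVM0025806 (435 bp, LG11, 36870908 to 36871342, minus strand) had 673, 689, 576 and 1401 RPKM. Replicate 4 stood far above the other 3. EVM0020055, of only 192 bp (LG07, 95730804 to 95730995, minus strand), was steady at 272, 309, 286 and 283 RPKM. The longest single-exon gene was EVM0023735 (4707 bp, LG03, 10154468 to 10159174, plus strand), and it was also the longest detected one. It had 15.0, 16.4, 16.2 and 18.2 RPKM, against a median of 10.8 RPKM for detected single-exon genes over 2000 bp.

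The share of single-exon genes differed little between linkage groups. It ran from 16.9% on LG05 (249 of 1476 genes) to 20.8% on LG11 (395 of 1895). The share of single-exon genes detected in every library ran from 38.4% on LG03 to 44.4% on LG07, against 68.4% to 76.3% of multi-exon genes over the 6 linkage groups. The share also varied with local gene density. Where more than 60 other genes lay within 1 Mb on either side, 842 of 4802 genes (17.5%) were single-exon, against 464 of 2232 (20.8%) where fewer than 20 did. With 20 to 60 the share was 835 of 3916 (21.3%), so that it was lower in the densest surroundings without a steady order.

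Single-exon genes of dense surroundings were detected more often than those of sparse ones. At 1 CPM stood 50.9% ± 1.60 of those with more than 60 genes around them, 41.9% ± 0.940 of those with 20 to 60, and 35.5% ± 0.814 of those with fewer than 20. Multi-exon genes showed a smaller step in the same order, with 79.2% ± 0.491, 73.0% ± 0.735 and 70.9% ± 0.371. The single-exon genes of dense surroundings were also longer, with a median of 867.5 bp against 664.5 bp in sparse ones. Within length classes the order was not uniform. At 500 to 1000 bp, 36.6% of 314 genes in dense surroundings were detected in every library, against 18.9% of 201 in sparse ones, and over 2000 bp 90.2% of 102 against 84.0% of 25. Under 500 bp the shares were 15.1% of 166 and 16.9% of 136, and over 1000 to 2000 bp 64.2% of 260 and 72.5% of 102.

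Single-exon genes tended to lie next to each other. The gene that followed a single-exon gene was itself single-exon in 543 of 2141 cases (25.4%), whereas after a multi-exon gene it was in 1598 of 8803 (18.2%). The difference was 7.21 percentage points, and it was 9.09 points among next genes on the same strand and 8.49 points among next genes that started within 10 kb. On unplaced contigs, which are outside these stretches, the shares were 29.9% and 22.0%. At 2 and 3 genes onward the differences were 5.88 and 3.27 points, and at 4 to 10 genes onward between 0.165 and 2.61 points. Neighbouring positions are not independent replicates, and no test was made.

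**Figure D3:**
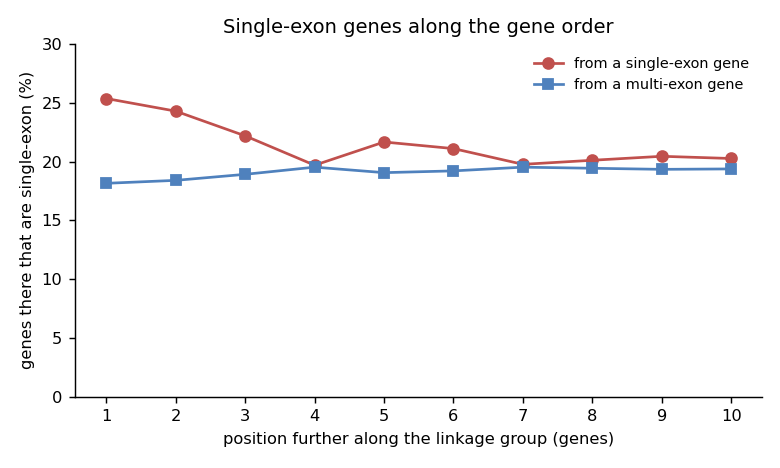
Percentage of genes that are single-exon at 1 to 10 genes further along the linkage group, counted from a single-exon gene (circles) or a multi-exon gene (squares). The lines start at 25.4% and 18.2% and lie within 2.61 points of each other from the fourth gene onward.

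Of the 2141 genes, 1235 had no single-exon gene directly beside them. A further 500 lay in 250 pairs, and 406 in 113 runs of 3 or more consecutive single-exon genes. The longest runs held 6 genes, and there were 6 such runs. Genes in runs of 3 or more were about as long as lone ones (median 793 against 777 bp). At 1 CPM stood 42.1% ± 1.99 of those in runs, against 45.2% ± 0.977 of lone genes, a difference of −3.12 ± 1.11 points (SD, n = 4; exact sign-flip permutation test, p = 0.13). As for the other detected shares, this SD is over libraries of the same genes and leaves out variation between genes. The difference was not seen in each length class. It was −4.39 ± 1.79 points under 500 bp, 0.692 ± 1.53 points at 500 to 1000 bp, −2.86 ± 4.26 points over 1000 to 2000 bp and −2.71 ± 1.47 points over 2000 bp.

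The 2 most compact of the longest runs were unlike each other. The first spans 74.6 kb of LG11 (129445542 to 129520170), with 5 of its 6 genes on the minus strand. Its plus-strand gene, EVM0023536 (725 bp, 129445542 to 129446266), had 50.5, 45.2, 47.4 and 46.4 RPKM in replicates 1 to 4. The other 5 genes were nearly silent: 3 had no count in any library, and the remaining 2 had 7 counts or fewer over all libraries.

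The second run spans 97.7 kb of LG07 (107704259 to 107802000). Its most abundant gene, EVM0024692 (1736 bp, 107704259 to 107705994, minus strand), had 329, 315, 499 and 116 RPKM. EVM0025567 (546 bp, 107775743 to 107776288, plus strand) had 8.54, 5.40, 41.4 and 2.47 RPKM. EVM0016408 (1472 bp, 107800529 to 107802000, plus strand) had 5.15, 3.74, 18.7 and 1.83 RPKM. All 3 were highest in replicate 3 and lowest in replicate 4. Of the other members, EVM0009544 had 47, 3, 78 and 4 counts and EVM0014383 had 23, 7, 165 and 6 counts, again highest in replicate 3, and EVM0016200 had none.

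Consecutive single-exon genes on these stretches lay on the same strand somewhat more often than other neighbours. With no gene between them, 311 of 543 pairs (57.3%) shared a strand, against 53.4% of 7205 adjacent multi-exon pairs. With 1 or 2 multi-exon genes between them, 288 of 592 single-exon pairs (48.6%) did. With 3 or more multi-exon genes between them, 502 of 1000 single-exon pairs (50.2%) did. Exactly equal exon lengths were found in 10 of the 543 adjacent pairs (1.84%) and in 6 of the 1000 distant ones (0.600%).

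The 10 equal-length pairs, looked up after the counts had been made, involved 18 genes, most of them with few reads. Genes of 573 bp stood 4 in a row on the plus strand of LG12 between 91115293 and 91172658, where 2 of them had 1 count each and the others none. The pair with most reads lies on LG07, in opposite orientation. There EVM0010077 (102616307 to 102616735) had 242, 96.7, 134 and 18.0 RPKM and EVM0001134 (102611557 to 102611985) had 34.8, 14.7, 17.7 and 2.51 RPKM. The order of the libraries was the same in both, with replicate 1 highest and replicate 4 lowest. The counting kept reads with several alignments, so levels of near-identical genes are uncertain, and whether these pairs are copies was not tested.

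At matched abundance, single-exon genes varied more between the replicate libraries. The spread was measured as the SD over the 4 libraries of log2(CPM + 0.5), a scale that understates changes of low genes. It was compared in 8 bins of mean CPM, among 963 single-exon and 6676 multi-exon genes with a mean of at least 1 CPM. The median spread was higher for single-exon genes in 7 of the 8 bins, the exception being 1 to 2 CPM (0.36 against 0.37). Weighted over the bins, the medians were 0.316 for single-exon and 0.255 for multi-exon genes, a difference of 0.061 on the log2 scale. With a library left out the difference lay between 0.052 and 0.070.

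The excess was largest among well-counted genes. At 50 to 100 CPM the median spread was 0.303 for 121 single-exon genes against 0.190 for 1223 multi-exon genes. At 100 to 200 CPM it was 0.332 (58 genes) against 0.180 (1041 genes), and above 200 CPM 0.241 (49 genes) against 0.162 (973 genes). Without replicate 4 the spread fell in both kinds, and at 100 to 200 CPM it stood at 0.167 against 0.090. Each gene yields 1 value from all libraries, so there is no test over libraries.

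**Figure D4:**
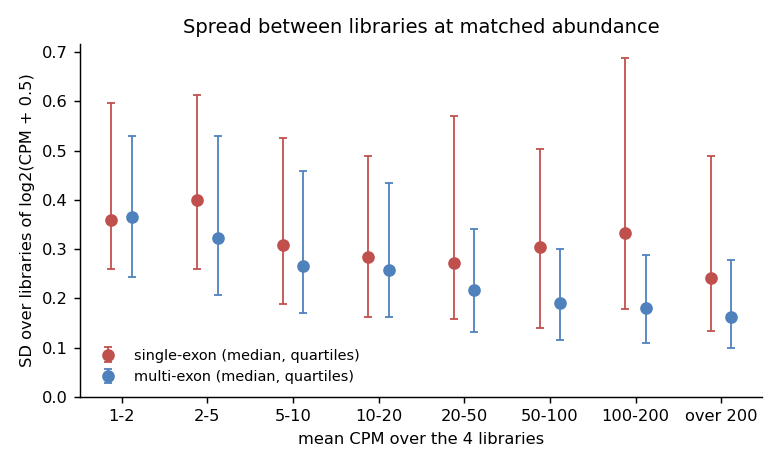
SD over the 4 libraries of log2(CPM + 0.5), in bins of mean CPM, for single-exon (left of each pair) and multi-exon (right) genes. Points are medians over genes and lines quartiles. The medians lie closest at 1 to 2 CPM (0.36 against 0.37) and farthest apart at 100 to 200 CPM (0.332 against 0.180).

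With CPM bin and length class matched together the difference was 0.065. Among genes with a mean of at least 20 CPM, the median spread of 196 single-exon genes over 1000 to 2000 bp was 0.328, against 0.217, 0.204, 0.181 and 0.185 for genes of 2, 3, 4 to 6 and 7 or more exons of that class. At 500 to 1000 bp, the median spread was 0.239 for genes with 1 exon, against 0.247 with 2 and 0.156 with 3. The biological coefficient of variation that edgeR estimated for each gene lay above the trend for its abundance in 35.0% of 963 single-exon genes, against 21.3% of 6676 multi-exon genes.

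The steadiest and the most variable single-exon genes with a mean of at least 10 CPM differed widely. EVM0009410 (1097 bp, LG05, 63018876 to 63019972, plus strand) had 28.0, 27.9, 27.8 and 28.5 RPKM. EVM0020453 (291 bp, LG11, 114276139 to 114276429, plus strand) had 254, 243, 250.2 and 252 RPKM. At the other end, EVM0000745 (998 bp, LG09, 153440160 to 153441157, plus strand) had 34.2, 3.59, 79.8 and 2.75 RPKM, and EVM0018597 (741 bp, LG09, 154770374 to 154771114, minus strand) had 14.2, 6.05, 45.6 and 0.606 RPKM. Both variable genes were highest in replicate 3 and lowest in replicate 4.

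Genes in which a single library lay more than 2-fold from all 3 others were counted next. Among detected single-exon genes there were 110 of 877 (12.5%), against 357 of 6445 multi-exon genes (5.54%) and a background of 6.63% of all detected genes. The excess was mainly at 500 to 1000 bp (14.1% against 4.96%) and over 1000 to 2000 bp (14.8% against 5.55%). Under 500 bp it was 7 of 77 (9.09%) against 5.82%, and over 2000 bp 13 of 182 (7.14%) against 5.76%. Replicate 3 was above the others in 40 single-exon genes (4.56%) and in 37 multi-exon genes (0.574%), with a background of 1.26%. Single-exon genes thus made up 51.9% of the genes high in replicate 3 on these stretches. From the shortest length class to the longest, the 40 numbered 1 (1.30%), 9 (3.85%), 25 (6.51%) and 5 (2.75%). The multi-exon shares were 0.794%, 0.468%, 0.605% and 0.548% in the same order. Replicate 4 was below the others in 52 single-exon genes (5.93%) and 179 multi-exon genes (2.78%), with a background of 3.28%. It was above them in 1.82% and 1.88%, with a background of 1.79%, so that the excess of single-exon genes was not seen in that direction.

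**Figure D5:**
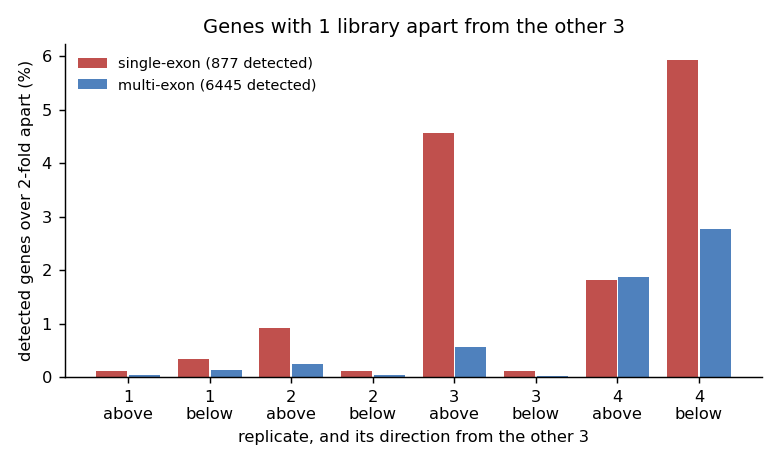
Percentage of detected genes in which the replicate named lay more than 2-fold above or below all 3 others, for single-exon (left) and multi-exon (right) genes. The bars differ most for genes above in replicate 3 (4.56% against 0.574%) and below in replicate 4 (5.93% against 2.78%).

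Replicates 1 and 2 stood apart in few genes. Replicate 2 was above the others in 8 single-exon genes (0.912%) and 16 multi-exon genes (0.248%), with a background of 0.326%, and below them in 1 single-exon gene, with a background of 0.0713%. Replicate 1 was below the others in 3 single-exon genes (0.342%) and 9 multi-exon genes (0.14%), with a background of 0.143%. It was above them in 1 single-exon gene, with a background of 0.0612%, and replicate 3 was below the others in 1, with a background of 0.0306%.

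The share of genes high in replicate 3 fell off with exon number. It was 4.56% for 1 exon, 1.89% for 2, 0.639% for 3, 0.413% for 4 to 6 and 0.120% for 7 or more. The 40 single-exon genes lay on all 6 linkage groups, had a median length of 1582 bp, and in 36 of them replicate 4 was the lowest library. Of the 40, 17 were lone genes (3.24% of detected lone genes) and 11 lay in pairs (5.56%). A further 12 lay in runs of 3 or more (7.74%), and this difference was not tested. Without replicate 4, single-exon genes high in replicate 3 numbered 45 of 913 (4.93%), against 53 of 6560 multi-exon genes (0.808%). Without replicate 1 they numbered 63 of 886 (7.11%), against 85 of 6464 (1.31%). With at least 10 CPM in every library, where fewer genes were counted, they numbered 22 of 474 (4.64%), against 14 of 5185 (0.270%). Genes low in replicate 4 numbered 16 (3.38%) at that floor, against 69 multi-exon genes (1.33%), and 87 of 880 (9.89%) without replicate 2, against 275 of 6462 (4.26%).

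The 2 genes of highest mean CPM among the single-exon genes high in replicate 3, chosen after their values were seen, were EVM0017676 and EVM0018632. EVM0017676 (2986 bp, LG12, 100863302 to 100866287, minus strand) had 55.4, 72.2, 273 and 37.2 RPKM in replicates 1 to 4. EVM0018632 (1213 bp, LG03, 11519991 to 11521203, minus strand) had 200, 154, 583 and 103 RPKM. In both, replicate 3 lay far above the other libraries and replicate 4 was lowest.

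The tilt of replicates 3 and 4 was also described over all well-counted single-exon genes, those picked for it included. Among the 552 single-exon genes with a mean of at least 10 CPM, the median deviation of replicate 3 from the mean of the others was 0.07 on the log2 scale, against −0.04 over 5457 multi-exon genes. For replicate 4 it was −0.18 against 0.04. The 552 genes include 30 of the 40 high in replicate 3 and 34 of the 52 low in replicate 4. No value was computed without them, here or for the shares of counts that follow. Single-exon genes took 6.20%, 6.27%, 6.97% and 5.55% of the counts of these stretches in replicates 1 to 4. The total counts were 22301051, 25434148, 23365618 and 22252534, and their part in the tilt was not tested. Nor were cell composition and RNA quality, as no named marker gene was at hand.

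At the limits of position, the last single-exon gene inside LG03 (EVM0021580) had 17, 31, 21 and 15 counts and the first beyond (EVM0022446) had none. On LG07 the last inside (EVM0022916) had 313, 366, 386 and 369 counts and the first beyond (EVM0027059) none. On LG05 the first inside (EVM0022761) had 1 count in all and the nearest before the limit (EVM0001201) none. The stretches were selected on read counts, so a contrast across these limits is not a separate result. At the limits of length, EVM0008276 (498 bp) had no count and EVM0014062 (500 bp) had 19, 13, 15 and 4 counts. EVM0000745 (998 bp) is described above, and EVM0000934 (1001 bp) had no count. EVM0008367 (2000 bp) had 98, 111, 84 and 251 counts, and EVM0018130 (2008 bp) had 1997, 2302, 2253 and 1943 counts.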

How the data were processed

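Counts per gene were deposited as whole numbers, with featureCounts 2.0.0 as the counter per the file headers: exons summed per gene, reverse strand only, reads aligning to several places counted at each. Trimmomatic 0.36, HISAT2 2.0.5, SAMtools and FastQC are named in the submitters' processing notes. The headers give a Lachesis-scaffolded assembly without a build name, and coordinates are those of the files, counted from 1. The deposited RPKM values equalled CPM per kilobase of exon for 28695 genes within 1e-06.

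From the counts were computed CPM (counts per 1000000 of the library total), exons merged where they overlap, runs of consecutive single-exon genes in order of start, and the spread of log2(CPM + 0.5). Detected means at least 1 CPM, in every library where so stated. Within-library differences were tested by an exact two-sided sign-flip permutation over the 4 libraries (SciPy 1.17.1). TMM factors came from edgeR 4.0.16 and size factors from DESeq2 1.42.0, both over all genes, in R 4.3.3. Tagwise dispersions came from edgeR with an intercept only, over genes with a mean of at least 1 CPM. Named genes are the 2 of highest mean RPKM per length class, the 2 runs of most genes (the more compact where tied), the extremes of spread and of length, and the genes next to each limit. Genes high in replicate 3 and neighbours of equal length were named after their values were seen. Members and lists were chosen with earlier results of these data known. The workbook's sheet of counts was not used, as it repeats the library files.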

Additional observations from a re-analysis of the deposited data

Results flagged for a closer look

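Of 53 values given per library, 4 showed a replicate well apart from its 3 fellows, and chance flags about 1 in 20. All 4 are levels of named genes, and some named genes were chosen for their spread, though none of these 4. EVM0017676 was chosen among the genes high in replicate 3, so its flag follows from that choice. EVM0025806 reached 1401 RPKM in replicate 4, against 673, 689 and 576 RPKM in replicates 1 to 3. EVM0008367 reached 5.64 RPKM in replicate 4, against 2.20, 2.18 and 1.80 RPKM in replicates 1 to 3. EVM0025567 reached 41.4 RPKM in replicate 3, against 8.54, 5.40 and 2.47 RPKM in replicates 1, 2 and 4. EVM0017676 reached 273 RPKM in replicate 3, against 55.4, 72.2 and 37.2 RPKM in replicates 1, 2 and 4.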

How the results depend on the processing

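Of 113 alternatives over 12 results, 0 turned a direction, but shares, levels and counts of genes have no direction to turn. Several sizes moved past their limit. That limit was the SD between libraries for shares and levels, and a set fold for counts of genes. For spread it was the SD of the values with a library left out. Differences in detection and level were checked for direction only. The difference in detected share, single-exon minus multi-exon, was −20.0 points at 1 count and −34.3 at 5 CPM, and at matched length −11.8 and −20.8. Differences within a library cannot move with its scaling, and the sign-flip p cannot pass 0.05, so a kept direction says little of stability. The share of single-exon genes detected was 65.5% at 1 count, 48.8% at 10 counts, 32.8% at 5 CPM and 49.5% at 0.5 RPKM, and 43.7% to 44.6% with a replicate left out. The median of detected genes was 6.26 RPKM with at least 1 count in every library, 31.9 RPKM with at least 10 CPM, 21.3 on the TPM scale, and 13.3 to 14.0 RPKM with a replicate left out. These follow from the floors and the scale. Excess spread was 0.072 with a mean of at least 10 CPM, 0.029 without a filter, on the scale of the SD of log2 values. With edgeR's tagwise biological coefficient of variation, converted to the log2 scale, the difference was 0.032. The SD difference was 0.052 to 0.070 with a replicate left out. Single-exon genes with 1 library apart numbered 46 of 474 (9.70%) at 10 CPM, against 3.30% of multi-exon genes. At 3-fold they numbered 43 of 877 (4.90%), against 1.43%. With a replicate left out they numbered 82 to 160. The fewest were without replicate 4 (8.98%, against 2.36%) and the most without replicate 1 (18.1%, against 7.29%). Single-exon genes low in replicate 4 numbered 16 at 10 CPM (3.38%, against 1.33% of multi-exon genes). They numbered 21 at 3-fold (2.39%, against 0.946%) and 87 without replicate 2 (9.89%, against 4.26%). Single-exon genes high in replicate 3 numbered 20 at 3-fold (2.28%, against 0.233% of multi-exon genes). In runs on 1 strand the detected share differed from that of lone genes by −6.46 points. Comparisons with 2-exon genes, the division by multiples of 3 and all settings for replicates 3 and 4 singly were added after seeing the data. No paired analysis was possible because all libraries belong to 1 group, so that replicate numbers pair no samples; both kinds of gene were compared within each library.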

Other observations

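Some single-exon genes overlap another gene. Exons on the opposite strand overlapped those of 44 single-exon genes, of which 5 (11.4%) were detected in every library, against 872 of 2097 (41.6%) without an overlap. Of 161 multi-exon genes with such an overlap, 108 (67.1%) were detected, against 73.3% of those without. The single-exon genes concerned were short, with a median of 564 bp against 789 bp. Counting used the strand, per the file headers, and no single-exon gene had an exon overlap on its own strand. Within the span of a multi-exon gene lay 27 single-exon genes, 20 of them over an exon on the opposite strand. Of these 20, 4 were detected, while 19 of their hosts were.

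The likeness of neighbouring genes was described over the 4 libraries, which gives only 4 points a pair. Among adjacent pairs with a mean of at least 10 CPM in both, the median Pearson correlation of log2(CPM + 0.5) was 0.669 (43 pairs). It was 0.336 with 1 or 2 multi-exon genes between them (47 pairs), 0.120 with 3 or more (65 pairs), and 0.228 for adjacent multi-exon pairs (3089 pairs). A correlation over 0.8 was found in 15 of the 43 adjacent pairs (34.9%), against 29.8%, 26.2% and 26.0% of the other sets in the same order. Most adjacent pairs were thus not closely alike. The libraries are shared by all pairs, and the difference was not tested.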
